A study of Homo sapiens with 8 samples.

Results

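The genes described here are 41 genes of DNA replication and mitosis, of the 20045 genes that the arrays named with a single symbol. They were taken from a fixed list of symbols that was drawn up with earlier results of these data known. Each gene was read from 1 probe, the one with the highest mean over the 8 arrays. The list holds 18 S-phase members, which act in origin licensing, nucleotide supply and DNA synthesis, and 23 mitotic members, which act in chromosome structure, the spindle and the control of mitosis. RNA levels were read with Illumina bead arrays in U6A cells, a human fibrosarcoma line without endogenous STAT2, grown in DMEM with fetal bovine serum. One line expressed wild-type STAT2 (WT) and the other expressed STAT2 with the T387A substitution. Cells of both lines were taken before interferon-β (IFN-β) and after 4, 8 and 24 h of 100 IU/ml, which gave 8 arrays, 1 for every line at every time (0 h is before treatment). The labels do not say how the STAT2 constructs were driven or whether a line was 1 clone, and the line labels were not checked against the STAT2 level, which was not analysed here.

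Replication and mitosis genes form a well known expression programme of dividing cells. Free E2F factors, released from RB family proteins late in G1, switch on the replication genes through E2F sites, while the DREAM complex and later B-MYB and FOXM1 act on the mitotic genes through the cell cycle homology region (CHR), often near CCAAT boxes. The summed level of such genes in a culture follows the share of its cells that are cycling and their phase, and type I interferons are known to slow the cycle of many cell types. STAT2 acts with IRF9 in the transcription factor that carries the type I interferon signal.

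The promoters of 4 S-phase members and 4 mitotic members are shown because they carry the motif by which each class is usually recognised and because the same genes recur in the values that follow. Each line gives the 100 bases before the gene's start in RefSeq (GRCh38.p14), 5′ to 3′ on the gene's strand. Capitals mark the E2F core (TTCCCGC or TTCGCGC, else TTGCCGC or otherwise TTGGCGC, on either strand) in the first 4 and the CHR (TTTGAA or TTCGAA, on either strand) in the last 4.
CDT1, chr16:88803689-88803788, plus strand: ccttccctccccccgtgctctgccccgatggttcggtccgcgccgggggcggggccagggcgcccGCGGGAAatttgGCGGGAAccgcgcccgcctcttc
TYMS, chr18:657553-657652, plus strand: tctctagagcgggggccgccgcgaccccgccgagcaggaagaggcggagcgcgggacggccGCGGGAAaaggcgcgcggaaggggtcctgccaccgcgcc
GINS2, chr16:85688955-85689054, minus strand: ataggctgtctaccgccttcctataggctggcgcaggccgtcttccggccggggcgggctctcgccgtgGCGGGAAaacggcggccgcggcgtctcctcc
E2F1, chr20:33686386-33686485, minus strand: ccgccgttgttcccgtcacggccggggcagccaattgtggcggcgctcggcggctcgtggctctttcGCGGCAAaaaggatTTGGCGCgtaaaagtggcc
CDC20, chr1:43358881-43358980, plus strand: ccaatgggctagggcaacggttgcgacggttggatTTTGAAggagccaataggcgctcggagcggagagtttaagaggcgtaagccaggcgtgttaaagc
KIF23, chr15:69414249-69414348, plus strand: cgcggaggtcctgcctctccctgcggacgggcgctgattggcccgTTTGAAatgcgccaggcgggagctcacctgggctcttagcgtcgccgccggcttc
PLK1, chr16:23678789-23678888, plus strand: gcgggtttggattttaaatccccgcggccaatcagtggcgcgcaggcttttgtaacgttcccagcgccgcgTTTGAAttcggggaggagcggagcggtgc
BUB1B, chr15:40160969-40161068, plus strand: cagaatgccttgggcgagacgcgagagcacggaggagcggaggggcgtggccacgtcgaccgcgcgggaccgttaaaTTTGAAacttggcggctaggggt
In the windows of CDT1, TYMS, GINS2 and E2F1 the E2F letters lie close before the start, and CDT1 and E2F1 carry a pair of matches. In the windows of CDC20, KIF23, PLK1 and BUB1B the CHR letters stand once each. CDC20 and PLK1 appear again below as mitotic members with estimates of opposite sign at 4 h.

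RefSeq windows of 300 bases, from 250 before to 50 after the start, were matched for 33 of the 41 members, 15 S-phase and 18 mitotic, in 41 windows. The E2F core was found in 61.9% of the 21 S-phase windows and in 25% of the 20 mitotic windows, beside 17.8% of the windows of genes tested and 13% of all 35116 windows. The CHR was found in 70% of mitotic windows and 9.52% of S-phase windows, beside 12.8% and 16.4%. CCAAT, on either strand, was in 90% of mitotic and 71.4% of S-phase windows, beside 35.4% and 34.6%. A short form of the interferon-stimulated response element, GAAA followed after any 2 bases by GAAA, was in 0 of the member windows, beside 3.04% of the windows of genes tested. Some E2F core matches overlap each other on opposite strands, and a window counts once for each motif however many matches it holds. These shares describe letters and not binding. MCM4, MCM5, CCNE2, AURKA, TTK, TPX2, BIRC5 and UBE2C had no window in the table.

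**Figure D1:**
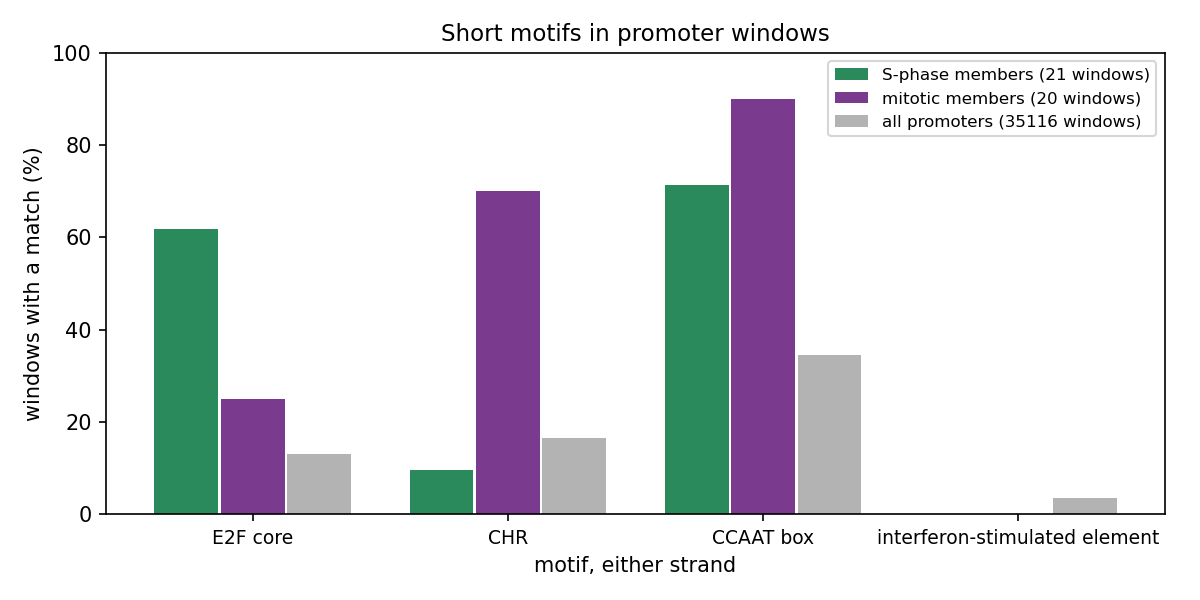
Share of promoter windows (%, vertical axis) that hold each motif on either strand, for S-phase members (21 windows), mitotic members (20 windows) and all RefSeq promoters (35116 windows). The E2F core is most frequent among S-phase windows (61.9%) and the CHR among mitotic windows (70%).

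All 41 members had a probe, and 40 were above the detection floor of 10.7 intensity units on at least 1 array and entered the tests. CCNE2, the cyclin E2 gene, lay between -10.2 and 0.2 on the 8 arrays and was not above the floor on any of them. MKI67, which encodes the proliferation antigen Ki-67, was above the floor on 5 arrays and its highest value was 17.6. The other 39 were above the floor on all 8 arrays, and 35 of the 41 had a mean intensity over 100. The intensities were linear, background-subtracted and quantile-normalized values as deposited, so arrays can be compared for 1 probe while levels of different probes cannot. Interferon treatment itself was plain in the data, since IRF9 rose by 3.29 ± 0.22 (log2, standard error (SE)) from 0 h to 4 h (adjusted p = 0.0225) and IFIT1, an antiviral protein gene, by 5.35 ± 0.23 (adjusted p = 0.0188). Of 12 markers of mesenchymal cells 9 were above the floor on all arrays, with a summed intensity of 24985.4 to 28233. Of 5 epithelial markers 0 were above the floor on all arrays and 3 were never above it, with a summed intensity of -0.2 to 20.6. Of 4 leukocyte markers 0 were above the floor on all arrays, with PTPRC and CD3E never above it and a summed intensity of 8.4 to 33.7. Of 3 endothelial markers PECAM1 was above the floor on all arrays while VWF and CDH5 never were, and the summed intensity was 21.3 to 63.1.

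The replication and mitosis genes stood slightly higher at 4 h of IFN-β than at 0 h in both lines, and lower at 24 h than at 4 h. With values under the floor raised to it, no member differed 2-fold or more from 0 h of its line on the probes read. Of all genes tested, 1.44% to 2.87% were that much higher or lower, depending on line, time and direction. A weaker UBE2C probe, above the floor on all arrays, averaged -1.12 (log2) over both lines at 24 h against 0 h. Differences were estimated with limma on log2 intensities from both lines together, with line as a term, which sets 2 arrays against 2. By limma with Benjamini-Hochberg adjustment over 13656 genes, 0 of 40 members passed an adjusted p of 0.05 in any of the 9 comparisons made. At 4 h against 0 h the background of calls was 0.344% of all genes tested. Without adjustment, 14 members were higher at 4 h and 0 were lower at p under 0.05, beside 7.94% and 9.53% of all genes. At 24 h against 4 h the background of calls was 1.02%, and 21 members were lower and 0 higher without adjustment, beside 9.31% and 10.5% of all genes. The count of 0 depended on the setting. With the floor raised to an intensity of 100, 6 members passed as higher at 4 h against 0 h and 14 as lower at 24 h against 4 h. With a trended and robust variance prior 3 and 9 did. Calls among all genes moved with the settings too, reaching 619 at 4 h against 0 h (47 as reported) and 1011 at 24 h against 4 h (139). The shares of 0.344% and 1.02% are therefore no background for these counts of members. With any 1 array left out, 0 members passed and 0 of all genes passed in the time comparisons. The values below are therefore estimates with their errors and not calls, and a count of 0 does not show that the members were unchanged. The same fit made no calls on simulated differences of the size that most members had. Few genes were changed in that simulation, so it does not give the chance of a call in these data. With 1 array per line and time the errors measure the spread between the lines' time courses, which may be technical. The control arrays were all taken at 0 h, so IFN-β and time in culture cannot be told apart, nor can fewer cycling cells be told apart from less RNA per cell.

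Of the 40 members tested, 35 had a positive estimate at 4 h against 0 h, with a median of 0.24 (log2) where the median of all genes tested was 0. In 25 members both arrays at 4 h were higher than both at 0 h, beside 19.1% of all genes tested and 27.4% of those with a mean intensity over 100. In 2 members, PLK1 and TOP2A, both arrays at 4 h were lower, beside 21.4% of all genes. The S-phase members had a median of 0.20, with 15 of 17 positive and 9 with both arrays higher. The mitotic members had a median of 0.30, with 20 of 23 positive and 16 with both arrays higher. The S-phase median minus the mitotic median was -0.10, about the size of the residual standard deviation of a class median between arrays (0.083 for S-phase and 0.082 for mitotic members). Without the WT 4 h array this difference of medians was 0.0011, so the classes were not told apart at 4 h. Without the WT 0 h array the class medians at 4 h were 0.11 for S-phase and 0.18 for mitotic members.

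**Figure D2:**
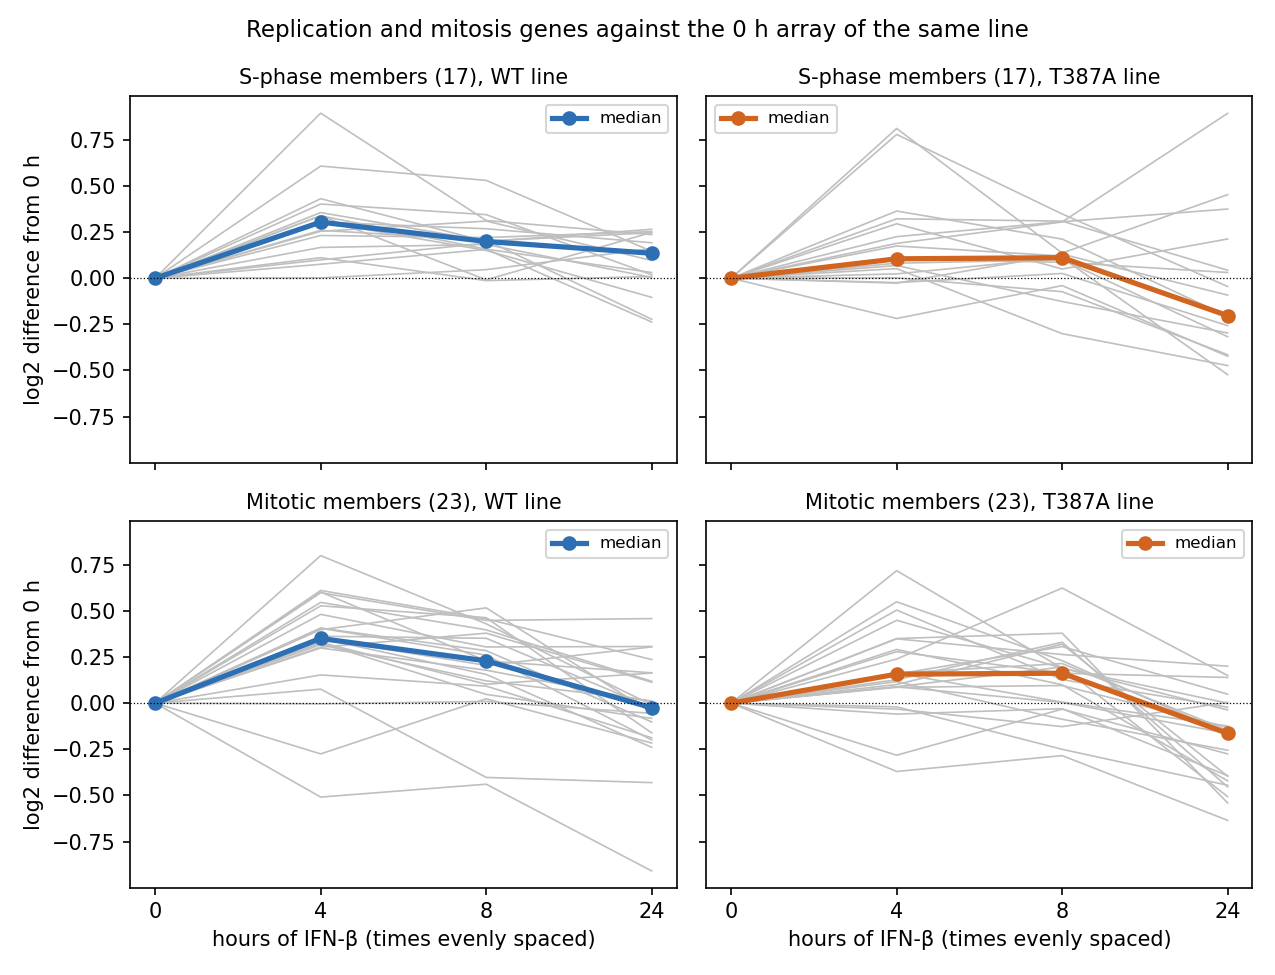
Log2 difference of each tested member from the 0 h array of the same line (vertical axis) at 0, 4, 8 and 24 h of IFN-β, with times evenly spaced. Thin grey lines are single genes (17 S-phase, 23 mitotic), thick lines are class medians. The medians were highest at 4 h in the WT line (0.30 and 0.35) and below 0 at 24 h in the T387A line (-0.20 and -0.16).

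At 24 h against 4 h, 38 of the 40 members had a negative estimate, with a median of -0.32 where the median of all genes was 0. In 32 members both arrays at 24 h were lower than both at 4 h, beside 20% of all genes tested and 28.5% of those with a mean over 100. All 23 mitotic members tested were negative, with a median of -0.41 and 20 with both arrays lower, and without the WT 4 h array the median was -0.27. NUSAP1 at -0.003 and TOP2A at -0.02 were close to 0. In single lines NUSAP1 (0.04) and TOP2A (0.01) in T387A and PLK1 (0.06) in WT were higher at 24 h than at 4 h. Of the S-phase members 15 of 17 were negative, with a median of -0.24 and 12 with both arrays lower, and without the T387A 24 h array that median was -0.11. The positive S-phase members were E2F1 at 0.20 ± 0.26 and PCNA at 0.02 ± 0.10 (SE). The comparisons of 4 h with 0 h and of 24 h with 4 h share the 4 h arrays. The S-phase median minus the mitotic median was 0.17 at 24 h against 4 h, and 0.032 without the WT 4 h array. Between 4 h and 8 h the medians were -0.06 for S-phase and -0.08 for mitotic members, and the background of calls in that comparison was 0%. Between 8 h and 24 h they were -0.10 and -0.28, with 21 of 23 mitotic members negative, and the background was again 0%.

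At 24 h against 0 h the members had spread to both sides. The S-phase median was -0.03, with 8 positive and 9 negative, and the mitotic median was -0.12, with 7 positive and 16 negative. Without the T387A 0 h array these medians were 0.11 and -0.02. By limma 0 of 40 passed, where 1.02% of all genes did, and 2 were higher and 5 lower at an unadjusted p under 0.05, beside 6.61% and 7.19% of all genes. At 8 h against 0 h the medians were 0.15 for S-phase members (15 of 17 positive) and 0.21 for mitotic members (19 of 23 positive), with 0 of 40 passing where 0.945% of all genes did. Without the WT 0 h array the mitotic median was 0.13, and without the T387A 0 h array the S-phase median was 0.23.

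**Figure D3:**
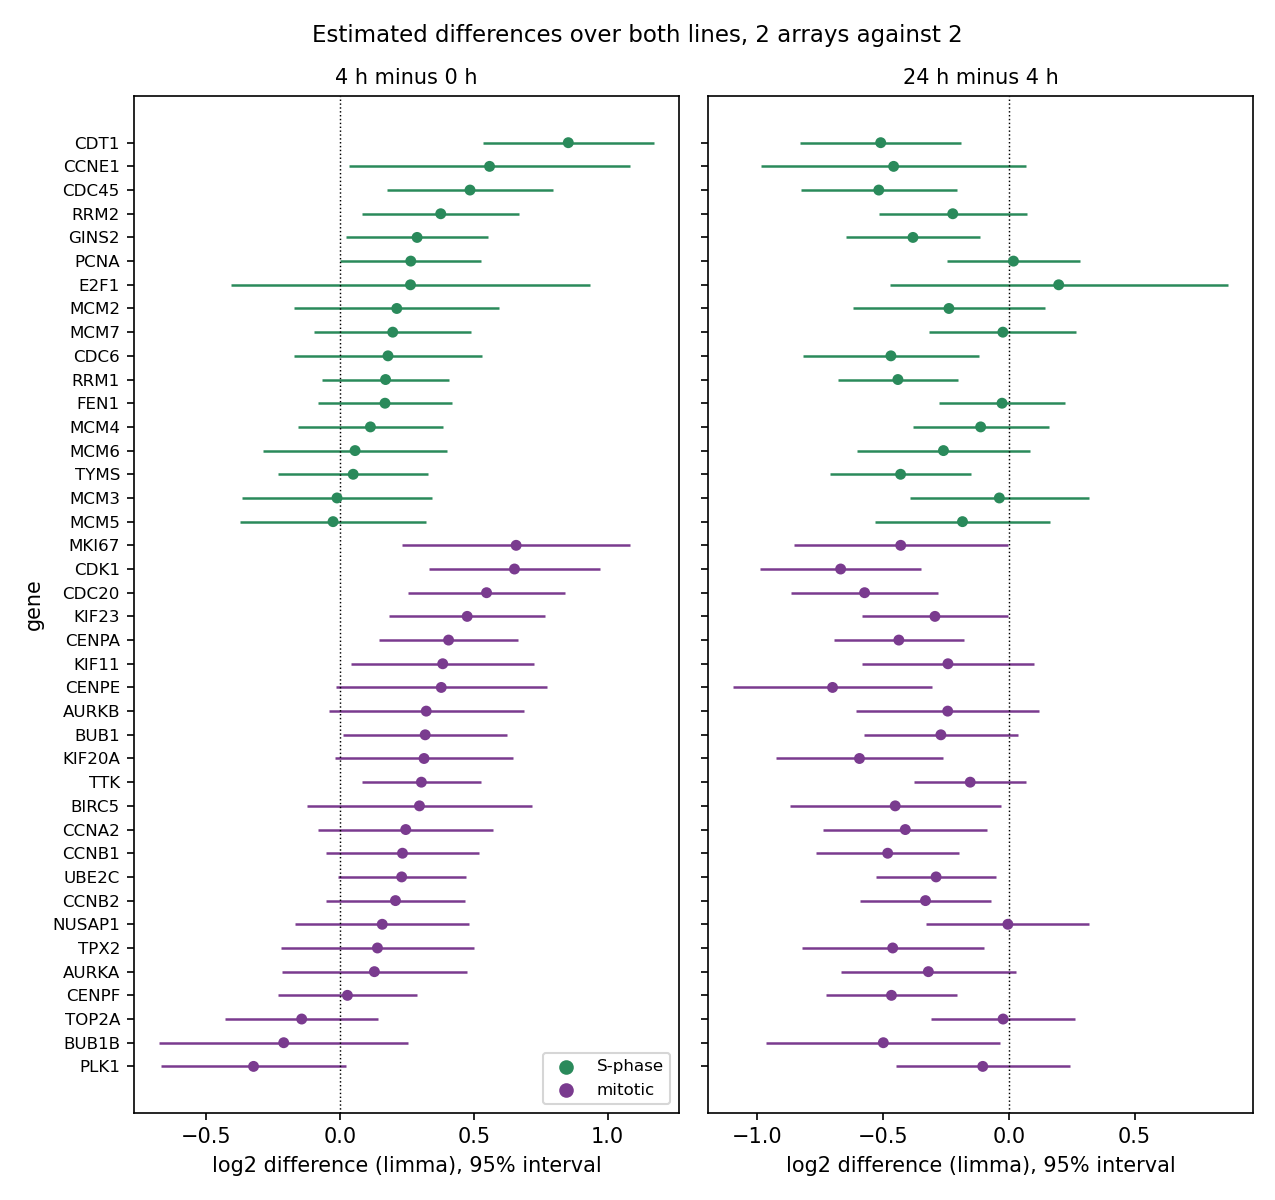
Limma estimates (points, log2) with 95% confidence intervals (bars) for each tested member over both lines, 4 h minus 0 h on the left and 24 h minus 4 h on the right, S-phase members in green and mitotic members in purple. CDT1 (0.85) and MKI67 (0.66, with both 0 h arrays under the floor) are farthest right at 4 h, and all mitotic members lie left of 0 at 24 h against 4 h, NUSAP1 only just (-0.003).

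Origin licensing was represented by CDT1 and CDC6, which load the MCM helicase onto origins, and by MCM2 to MCM7. CDT1 had an intensity of 222.1, 412.9, 275.9 and 261.6 at 0, 4, 8 and 24 h in the WT line, and of 225.7, 396.1, 248.1 and 308.9 in the T387A line. Both 4 h arrays stood above the other 6, and the groups at 4 h and 0 h did not overlap. The 4 h estimate was 0.85 ± 0.12 (log2, SE, 2 arrays against 2), or 1.81-fold, with an adjusted p of 0.0832. CDC6 lay just above the floor on every array, at 17.3, 21.4, 19.2 and 16.1 in the WT line and at 21.8, 22.6, 17.7 and 15.7 in the T387A line. The 24 h arrays were its lowest in each line, with an estimate against 4 h of -0.47 ± 0.14 (adjusted p = 0.160).

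The 6 MCM genes encode the subunits of the replicative helicase. Their 4 h estimates ran from -0.03 for MCM5 to 0.21 for MCM2, with all but MCM3 and MCM5 positive. At 24 h against 0 h they ran from -0.21 for MCM5 to 0.17 for MCM7, and in each of them but MCM7 the WT line was above and the T387A line below its own 0 h array. MCM5, for example, had 310.9, 349.0, 352.9 and 311.8 in the WT line and 396.7, 341.0, 385.8 and 295.9 in the T387A line. Its treated arrays were all above 0 h in the WT line and all below it in the T387A line. The MCM7 exception depended on the probe, since another MCM7 probe above the floor on all arrays stood at -0.16 at 24 h against 0 h. The sign of MCM3 at 4 h did so too, since a weaker MCM3 probe above the floor on all arrays stood at 0.21.

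CDC45 and GINS2 complete the active helicase with the MCM ring. CDC45 had 479.4, 730.5, 692.3 and 530.4 in the WT line and 627.5, 807.6, 726.8 and 543.8 in the T387A line. It was highest at 4 h in both lines, by 0.49 ± 0.12 over 0 h (adjusted p = 0.164), and lower at 24 h than at 4 h by -0.52 ± 0.12 (adjusted p = 0.112). GINS2 stood at 0.29 ± 0.10 at 4 h against 0 h and at -0.38 ± 0.10 at 24 h against 4 h. CDC45, MCM5, CCNE1, CDK1, CDC20, KIF23, BUB1, TOP2A, MKI67 and AURKA are given array by array as a choice made after their values were seen.

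Nucleotide supply was represented by RRM1 and RRM2, the subunits of ribonucleotide reductase, and by TYMS, thymidylate synthase, which makes dTMP. TYMS had 1849.7, 1949.1, 2061.4 and 1569.0 in the WT line and 1979.3, 2011.7, 2138.0 and 1377.6 in the T387A line. The 24 h array was the lowest of its line in both, and 24 h stood against 0 h at -0.38 ± 0.11 (adjusted p = 0.243). RRM1 had 1708.8, 2045.6, 1971.4 and 1464.5 in the WT line and 1924.6, 2036.1, 2063.2 and 1544.8 in the T387A line, again with the lowest value at 24 h. Its estimate at 24 h against 4 h was -0.44 ± 0.09, or 1.36-fold lower, with an adjusted p of 0.0979. RRM2, the regulated small subunit, had no such low value at 24 h, at 0.15 ± 0.11 against 0 h and -0.22 ± 0.11 against 4 h.

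PCNA, the sliding clamp of the replicative polymerases, and FEN1, the nuclease that trims Okazaki fragments, stood above 0 h at 24 h on the probes read. PCNA had 1500.2, 1851.9, 1806.5 and 1714.0 in the WT line and 1258.6, 1471.3, 1556.1 and 1632.0 in the T387A line. All 6 treated arrays were above the 0 h array of their own line, and the treated arrays stood above 0 h by 0.28 ± 0.08 (adjusted p = 0.320), in a comparison where 0.183% of all genes passed. The T387A array was below the WT array at every time. A weaker PCNA probe, also above the floor on all arrays, stood at 0.02 at 4 h and -0.06 at 24 h against 0 h. FEN1 was 0.14 ± 0.10 above 0 h at 24 h.

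E2F1, which encodes a transcription factor that drives S-phase genes and its own promoter, had its highest value at different times in the lines. It had 55.6, 70.3, 62.0 and 56.8 in the WT line, with the highest value at 4 h, and 40.8, 46.5, 50.4 and 75.8 in the T387A line, with the highest at 24 h. The 24 h estimate over both lines was 0.46 ± 0.26 (adjusted p = 0.528). The difference of 24 h from 0 h was 0.89 in the T387A line and 0.03 in the WT line. Each of these rests on 1 array against 1, and the difference between the lines at 24 h was not tested. By limma 0 of 17 S-phase members had an interaction of line and treatment at an unadjusted p under 0.05. Of all genes 3.04% were higher and 2.91% lower at that level. That interaction takes all treated times together, so it does not test the 24 h difference. CCNE1, cyclin E1, a partner of CDK2 at the start of S phase, had 65.0, 82.2, 64.6 and 77.2 in the WT line and 45.8, 78.6, 58.3 and 44.4 in the T387A line, and stood at 0.56 ± 0.20 at 4 h against 0 h (adjusted p = 0.265).

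**Figure D4:**
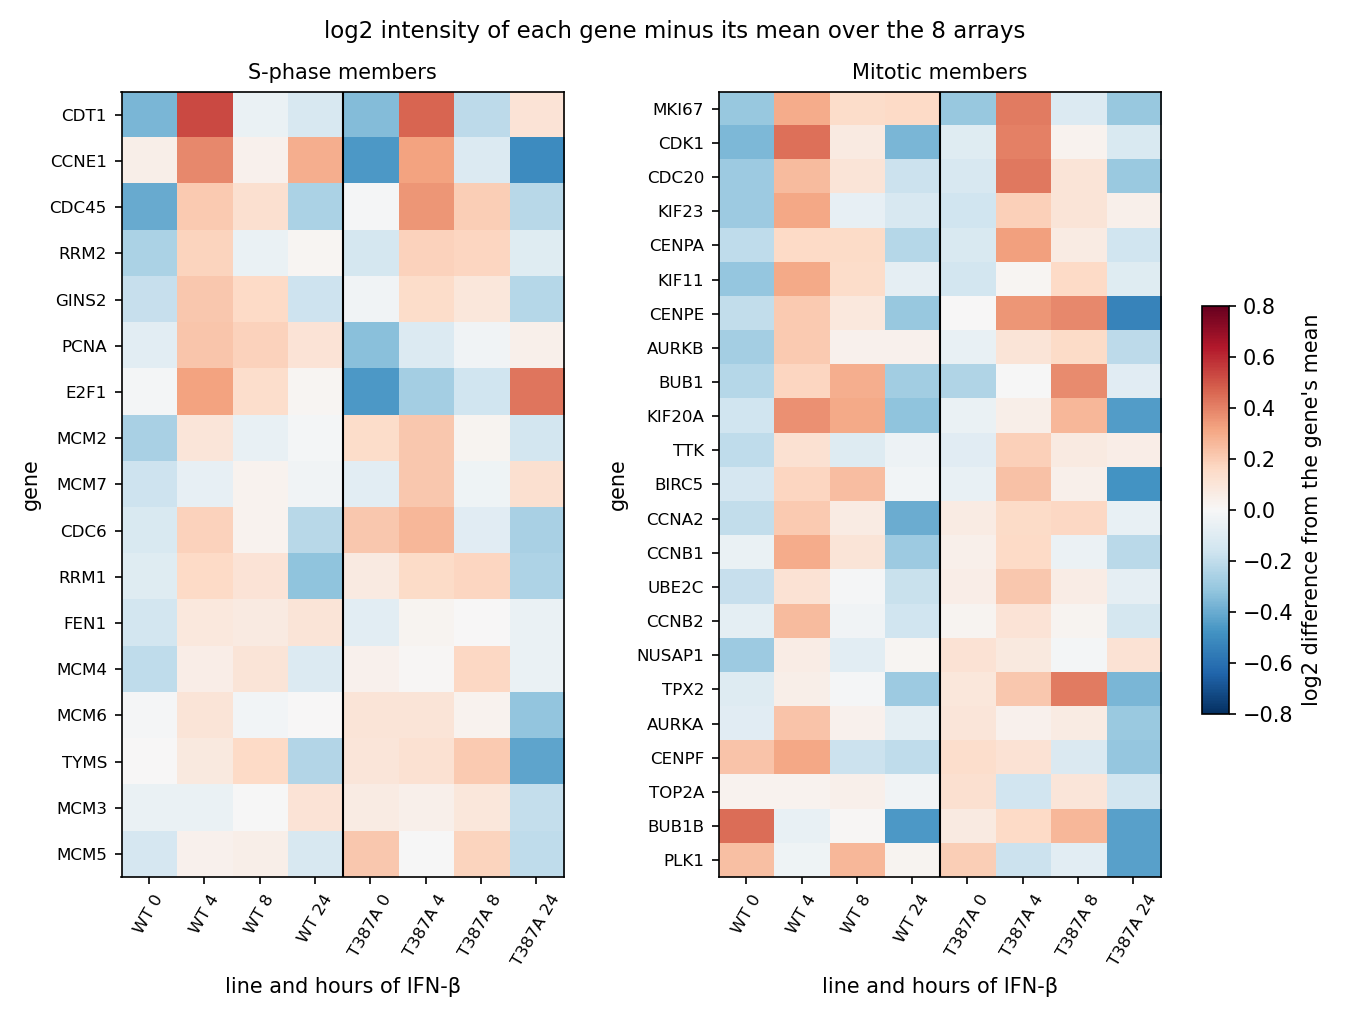
Log2 intensity of each tested member minus its own mean over the 8 arrays (colour), S-phase members on the left and mitotic members on the right, ordered by the 4 h minus 0 h estimate. Columns are the WT and T387A arrays at 0, 4, 8 and 24 h. The 4 h columns are mostly above the mean and the 24 h columns mostly below, with PLK1 and E2F1 as visible exceptions.

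Among the regulators of mitotic entry, CDK1 with its cyclins CCNA2, CCNB1 and CCNB2 stood highest at 4 h in the WT line. CDK1, the mitotic kinase, had 631.3, 1098.9, 850.3 and 627.2 in the WT line and 755.9, 1072.2, 825.8 and 744.3 in the T387A line. The 4 h arrays were above all others, and the 24 h arrays differed from 0 h of their own line by -0.01 and -0.02 (log2). The estimates were 0.65 ± 0.12 at 4 h against 0 h (1.57-fold, adjusted p = 0.113) and -0.67 ± 0.12 at 24 h against 4 h (adjusted p = 0.0821), the smallest adjusted p of any member. Another CDK1 probe above the floor on all arrays stood at 0.20 at 24 h against 0 h. CCNA2, CCNB1 and CCNB2 stood at 0.25, 0.23 and 0.21 at 4 h against 0 h, and at -0.41, -0.48 and -0.33 at 24 h against 4 h.

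The mitotic kinases differed from one another. PLK1, which acts in centrosome maturation and spindle assembly, had 145.1, 119.9, 147.5 and 124.9 in the WT line and 140.9, 109.0, 115.7 and 90.7 in the T387A line. Its 4 h arrays were below both 0 h arrays, at -0.32 ± 0.13 (adjusted p = 0.317), and 24 h stood at -0.43 ± 0.13 against 0 h (adjusted p = 0.277). AURKB, the kinase of the chromosomal passenger complex, and BIRC5, its survivin subunit, stood at 0.32 ± 0.14 and 0.30 ± 0.16 at 4 h. AURKA, a spindle pole kinase, stood at 0.13 ± 0.13, and TPX2, which activates it on spindle microtubules, at 0.14 ± 0.14.
TPX2 had 382.8, 425.6, 408.1 and 336.1 in the WT line and 437.1, 477.4, 549.5 and 319.1 in the T387A line, with 24 h the lowest in each, at -0.46 ± 0.14 against 4 h (adjusted p = 0.171).

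The spindle checkpoint and the anaphase-promoting complex were represented by BUB1, BUB1B, TTK, CDC20 and UBE2C. CDC20, which activates the anaphase-promoting complex, had 2581.2, 3768.8, 3399.3 and 2801.9 in the WT line and 2895.7, 4237.6, 3396.9 and 2577.2 in the T387A line. The 4 h array was the highest of its line in both, with 0.55 ± 0.11 over 0 h (adjusted p = 0.125) and -0.57 ± 0.11 at 24 h against 4 h (adjusted p = 0.0902). BUB1, a checkpoint kinase, had 348.8, 459.6, 498.9 and 336.5 in the WT line and 344.8, 406.9, 531.3 and 382.5 in the T387A line, with its highest value at 8 h in both and an 8 h estimate of 0.57 ± 0.12 (adjusted p = 0.146). BUB1B, the BubR1 checkpoint gene, went the other way in the WT line, with 120.4, 84.6, 88.8 and 64.1, while the T387A line had 92.8, 98.7, 106.3 and 65.3. The 24 h array was the lowest in both lines, at -0.71 ± 0.18 against 0 h (1.63-fold lower, adjusted p = 0.206). On the probes read this was the widest difference of 24 h from 0 h among the 40 members. TTK, the MPS1 kinase, and UBE2C, the E2 enzyme of the complex, stood at 0.30 ± 0.09 and 0.23 ± 0.09 at 4 h. A weaker UBE2C probe, also above the floor on all arrays, stood at 0.54 at 4 h and -1.12 at 24 h against 0 h.

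Centromere and kinetochore members were CENPA, CENPE and CENPF. CENPA, the centromeric histone H3 variant, stood at 0.41 ± 0.10 at 4 h against 0 h (adjusted p = 0.164) and at -0.44 ± 0.10 at 24 h against 4 h (adjusted p = 0.110). CENPE, a kinetochore motor, had 219.8, 291.4, 267.7 and 204.8 in the WT line and 253.0, 322.5, 329.0 and 173.9 in the T387A line. The 24 h arrays were the lowest of each line, at -0.70 ± 0.15 against 4 h (adjusted p = 0.102). CENPF, a large kinetochore protein of late G2 and mitosis, had 355.6, 374.8, 269.0 and 263.8 in the WT line and 333.4, 328.8, 280.3 and 244.9 in the T387A line. Unlike most members it was already below 0 h at 8 h, by -0.33 ± 0.10, and stood at -0.44 ± 0.10 at 24 h (1.35-fold lower, adjusted p = 0.169).

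Of the spindle motors and microtubule proteins, KIF23, the centralspindlin motor of cytokinesis, had 191.7, 291.0, 224.7 and 214.8 in the WT line and 210.1, 267.5, 252.2 and 241.4 in the T387A line. All treated arrays were above the 0 h arrays, with 0.48 ± 0.11 at 4 h (adjusted p = 0.153). A weaker KIF23 probe, also above the floor on all arrays, stood at 0.72 at 4 h and -0.47 at 24 h against 0 h. KIF20A, a motor of the central spindle, had 329.7, 475.2, 454.5 and 294.8 in the WT line and 355.7, 381.5, 443.9 and 270.3 in the T387A line. Its 24 h arrays were below all others, at -0.59 ± 0.13 against 4 h (adjusted p = 0.101). KIF11, the motor that separates spindle poles, stood at 0.38 ± 0.13 at 4 h, and NUSAP1, a spindle microtubule protein, at 0.16 ± 0.13.

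The remaining mitotic members mark proliferating chromatin. MKI67 had -0.2, 16.2, 14.6 and 14.7 in the WT line and 8.6, 17.6, 12.2 and 4.6 in the T387A line. Both 0 h arrays were under the floor, so its 4 h estimate of 1.58-fold was set partly by the floor and rests on values close to background. The 95% interval of that estimate was 0.23 to 1.08 (log2). TOP2A, topoisomerase II alpha, was nearly level in the WT line, at 2210.1, 2204.4, 2224.1 and 2127.0, and had 2372.5, 1951.0, 2319.8 and 1960.4 in the T387A line.

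The time of the highest value was counted for members only, with no share over all genes to set beside it. Among members above the floor on all arrays, 11 of 17 S-phase members were highest at 4 h in the WT line and 10 of 17 in the T387A line. Of the 22 mitotic members, 17 were highest at 4 h in the WT line against 9 in the T387A line, where 8 were highest at 8 h and 4 at 0 h. The difference between the lines in these counts was not tested. In the T387A line the S-phase and mitotic medians over 0 h were 0.11 and 0.16 at 4 h and also at 8 h, so they did not single out 4 h. Of the 14 members with another probe above the floor, the other probe had the same sign in 13 at 4 h against 0 h, in 13 at 24 h against 4 h and in 7 at 24 h against 0 h, so the sign of the 24 h difference from 0 h was not stable between probes. That sign differed between probes in MCM7, PCNA, CDK1, CENPE, KIF11, KIF23 and NUSAP1.

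The question of whether the lines differed was met with a fit of T387A against WT over the 4 times. By limma 0 of 40 members passed, as did 0% of all genes, and 3 members, PCNA, CCNE1 and PLK1, were lower in the T387A line at an unadjusted p under 0.05, beside 5.21% of all genes. PCNA stood at -0.22 ± 0.07 (adjusted p = 0.404), CCNE1 at -0.38 ± 0.14 (adjusted p = 0.452) and PLK1 at -0.25 ± 0.09 (adjusted p = 0.452). In 0 members were the 4 arrays of one line all above those of the other, beside 1.51% and 1.49% of all genes in either direction. The class medians were 0.01 for S-phase and 0.02 for mitotic members.

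The medians of the responses were higher in the WT line, and the 0 h arrays of the lines differed too. At 4 h against 0 h within the WT line all 17 S-phase members and 20 of 23 mitotic members were positive, with medians of 0.30 and 0.35. Within the T387A line 14 of 17 and 18 of 23 were positive, with medians of 0.11 and 0.16. At 8 h against 0 h the medians were 0.20 and 0.23 in the WT line and 0.11 and 0.16 in the T387A line. At 24 h against 0 h the medians were 0.14 and -0.02 in the WT line and -0.20 and -0.16 in the T387A line. At 0 h the T387A array was above the WT array in 32 of 40 members, with medians of 0.11 and 0.12. It was above in 46.2% of all genes tested and in 55.9% of those with a mean intensity over 100. At 4 h the medians of the members were -0.01 and -0.05. The interaction of line and treatment was negative in 33 of 40 members, with a median of -0.15 beside -0.03 for all genes tested, of which 7555 of 13656 were negative. By limma 0 members passed, where 0.747% of all genes did, and only NUSAP1 was below an unadjusted p of 0.05, at -0.34 ± 0.13 (adjusted p = 0.80), while 3.04% of all genes were higher and 2.91% lower at that level. Each line has a single 0 h array, so 1 array enters every response of its line. Between single arrays, values under the floor were raised to it. On the probes read 0 members differed by 2-fold or more from the 0 h array of their line. Of all genes tested, 2.41%, 2.44% and 2.87% were that much higher at 4, 8 and 24 h in the WT line and 1.79%, 2.31% and 2.51% in the T387A line, and 2.31%, 1.6% and 2.01% (WT) and 1.58%, 1.44% and 2.12% (T387A) were that much lower. At 1.5-fold, 6 were higher in the WT line at 4 h (beside 7.73% of all genes tested) and 3 in the T387A line (beside 6.14%).

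Genes of the same pathways outside the 41 gave similar medians. Of 45 other replication genes tested, 38 were positive at 4 h against 0 h, with a median of 0.29, and 40 were negative at 24 h against 4 h, with a median of -0.28. By limma 0 of them passed in either comparison. Without adjustment 14 were higher and 1 lower at 4 h, beside 7.94% and 9.53% of all genes, and 1 was higher and 15 lower at 24 h against 4 h, beside 10.5% and 9.31%. GINS3, another subunit of the GINS complex, stood at 0.73 ± 0.11 at 4 h (adjusted p = 0.0872), and POLE2, a subunit of DNA polymerase epsilon, at -0.82 ± 0.14 at 24 h against 4 h (adjusted p = 0.0733). POLD2, a subunit of DNA polymerase delta, was below 0 h at every time in both lines, at -0.69 ± 0.14 at 24 h (adjusted p = 0.139). Of 55 other mitosis genes tested, 48 were positive at 4 h, with a median of 0.25, and 49 were negative at 24 h against 4 h, with a median of -0.24. By limma 0 passed. Without adjustment 16 were higher and 0 lower at 4 h, and 1 was higher and 25 lower at 24 h against 4 h, beside the same shares of all genes. CDCA5, the cohesin regulator sororin, stood at 0.47 ± 0.09 at 4 h (adjusted p = 0.119) and NCAPD2, a condensin subunit, at -0.41 ± 0.13 at 24 h against 4 h (adjusted p = 0.179). At 24 h against 4 h CDCA5 stood at only -0.11 in the WT line and -0.01 in the T387A line. In the same order KIF15 stood at -0.06 and 0.43, and ESPL1 at -0.10 and 0.31.

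The regulators above these genes showed no such shift as a list. Of 19 genes of the E2F, RB and DREAM group tested, 11 were positive at 4 h, with a median of 0.09, and at 24 h against 4 h the median was 0 with 9 on each side. Without the WT 4 h array the 4 h median was -0.0045, and without the T387A 4 h array the median at 24 h against 4 h was -0.11. By limma 0 passed in these comparisons. Without adjustment 3 were higher and 2 lower at 4 h, where 7.94% and 9.53% of all genes were, and 3 were higher and 2 lower at 24 h against 4 h, where 10.5% and 9.31% were. E2F2, an activator E2F, had 81.2, 159.8, 106.0 and 66.9 in the WT line and 100.8, 135.1, 106.5 and 69.4 in the T387A line. It was highest at 4 h and lowest at 24 h in both, at -1.11 ± 0.15 (adjusted p = 0.0538). RBBP4, a histone-binding subunit of the DREAM core, stood at -1.06 ± 0.15 at 24 h against 4 h (adjusted p = 0.0562), and RBL1, the p107 pocket protein, at 1.02 ± 0.25 at 4 h against 0 h (adjusted p = 0.162). FOXM1 lay between 158.3 and 219.1 on the 8 arrays and RB1 between 88.9 and 112.3. MYBL2, the gene of B-MYB, was above the floor on only the 0 h arrays, at 51.0 in the WT line and 11.3 in the T387A line, so its interaction of 2.17 (adjusted p = 0.0103) rests on 1 array against values at the floor.

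Of 12 G1 genes and CDK inhibitors tested, 8 were positive at 4 h, with a median of 0.14, and 6 at 24 h against 4 h, with a median of -0.02. Without the WT 4 h array the 4 h median was 0.012, and without the WT 24 h array the median at 24 h against 4 h was -0.12. By limma 0 passed in either. Without adjustment 4 were higher and 2 lower at 4 h, beside 7.94% and 9.53% of all genes, and 1 was higher and 1 lower at 24 h against 4 h, beside 10.5% and 9.31%. CCND3, cyclin D3, stood at 0.64 ± 0.09 at 4 h against 0 h (adjusted p = 0.0861) and was above 0 h on all 6 treated arrays. CDK2, the partner of cyclins E and A, stood at 0.38 ± 0.11 (adjusted p = 0.195). MYC, a growth-promoting transcription factor that interferons are known to lower in some cells, stood at -0.45 ± 0.17 (adjusted p = 0.282), with every treated array below 0 h of its line. The CDK inhibitor CDKN1A (p21) lay between 2244.7 and 2961.8 and CCND1, cyclin D1, between 2645.5 and 3426.0. CDKN1B (p27) had 158.0, 182.0, 146.7 and 142.3 in the WT line and 112.9, 128.8, 125.6 and 218.2 in the T387A line, with its highest value on the T387A 24 h array and no difference past the test.

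The medians of members with and without each motif are described here with no test. At 4 h against 0 h the 16 members with an E2F core had a median of 0.22 and the 17 without it 0.32. The 15 members with a CHR had 0.21 and the 18 without it 0.26. At 24 h against 4 h the medians were -0.32 with and -0.41 without the E2F core, and -0.33 with and -0.40 without the CHR. The 26 members with CCAAT had 0.26 at 4 h against 0 h and -0.31 at 24 h against 4 h, and the 7 without it had 0.21 and -0.46. PLK1 and BUB1B, whose windows carry the CHR shown above, stood below 0 at 4 h, while CDC20 and KIF23, which carry the same letters, stood above it.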

How the data were processed

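Total RNA was labelled with biotin and measured on 8 Illumina bead arrays, 1 for each line and time, per the labels, which do not say whether the arrays came from separate cultures. The authors deposited linear intensities, made with GenomeStudio per the submitters' processing notes, which give neither version nor settings. Background had been subtracted, since 28.6% of values were at or below 0, and the arrays had been quantile-normalized, since 78.6% of ranks held identical values on all 8 arrays, so no further normalization was applied. The arrays' number limits the precision.

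Of 47315 probes 30111 carried 1 gene symbol. Each gene was read from its brightest probe by mean, values under 10.7 (the size of percentile 1) were raised to 10.7 before taking log2. The 13656 genes above that floor on at least 1 array were fitted with limma 3.58.1 in R 4.3.3 (lmFit and eBayes, Benjamini-Hochberg adjusted p under 0.05) with terms for line and time, for line and treated, and for their interaction, with 3 residual degrees of freedom in the first. The fit was tested on simulated data, where it called the largest simulated differences and none of the size that most members had. Few genes were changed there, and the simulated noise was independent between genes.

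The members and the lists were chosen with earlier results of these data known. By rule, members shown array by array were, in each class, the 6 with the largest 24 h minus 0 h difference among those above the floor on all arrays, and 10 further members so shown are named in the text as chosen later. Of each other list the 4 such genes could be named, with 9 single genes. Lists and classes are described by counts and medians. Alternatives were other floors, an offset, a stricter filter, the mean of a gene's probes, cyclic loess, scaling, another variance prior, left-out arrays, other terms and a lower fold. Some genes of the lists are not reported here. Promoter sequences are those of RefSeq (GRCh38.p14).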

Additional observations from a re-analysis of the deposited data

Results flagged for a closer look

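In 2 of the 40 members tested (5%) the differences from 0 h had opposite signs in the 2 lines at all 3 times, beside 641 of 13656 genes (4.69%). In these 2 members the treated arrays were above 0 h in the WT line and below it in the T387A line. MCM5, a subunit of the replicative helicase, had an interaction of -0.345 ± 0.234 (log2, SE), and AURKA, a spindle pole kinase, had -0.311 ± 0.273, with adjusted p-values of 1 by limma for both. AURKA had intensities of 1009.6, 1257.4, 1097.6 and 1018.2 at 0, 4, 8 and 24 h in the WT line and 1146.7, 1100.5, 1123.0 and 873.0 in the T387A line. The share is near that of all genes, and the differences at single times were not tested.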

How the results depend on the processing

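The reported fit compares the times within lines through its line term, and no further block was fitted because the labels give no replicate numbers. Of the alternatives outside single-array omission, those that changed a count of members or moved a list median were as follows, and the cause was not tested.

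Members higher at 4 h against 0 h numbered 1 with the floor doubled, 2 with an offset of 16 and no floor, 6 with a floor of 100 and 3 with a trended and robust prior, against 0. Members lower at 24 h against 4 h numbered 2, 3, 14 and 9 under the same settings. With the floor of 100, 1 member was higher at 8 h against 0 h, 1 lower at 24 h against 0 h and 5 lower at 24 h against 8 h, and the trended prior called 1 higher at 8 h. At 1.5-fold in place of 2-fold, 6 members were higher and 1 lower in the WT line (4 h and 24 h). In the T387A line 3 at 4 h, 1 at 8 h and 1 at 24 h were higher and 1 at 24 h lower. Of all 13656 genes tested, 1056 were higher at 4 h and 928 lower at 24 h in the WT line. In the T387A line 839, 889 and 1002 were higher at 4, 8 and 24 h and 1109 lower at 24 h. Over these alternatives the calls among all genes ranged from 0 to 619 at 4 h against 0 h (47 as reported), from 0 to 468 at 8 h (129), from 0 to 351 at 24 h (139) and from 0 to 1011 at 24 h against 4 h (139).

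The mitotic median at 24 h against 4 h was -0.3173 with the offset and -0.325 with the floor of 100. The median of other replication genes was 0.2451 (doubled floor), 0.2213 (offset), 0.2072 (floor of 100) and 0.2548 (mean of probes) at 4 h against 0 h, and -0.2485, -0.19, -0.1692 and -0.1621 at 24 h against 4 h. That of other mitosis genes was 0.1843 (offset), 0.1857 (floor of 100) and 0.1836 (mean of probes) at 4 h, and -0.2038 with the offset at 24 h against 4 h. That of G1 genes was 0.0886 at 4 h and 0.031 at 24 h against 4 h, both with the floor of 100 and with 4 arrays required above the floor, and -0.1129 with the mean of probes.

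With each array left out in turn, the S-phase median ranged from 0.1073 to 0.2409 at 4 h against 0 h, from -0.1278 to 0.1103 at 24 h against 0 h and from -0.357 to -0.1111 at 24 h against 4 h. The mitotic median ranged from 0.1764 to 0.3336, from -0.1836 to -0.0162 and from -0.4119 to -0.2712, and the S-phase minus mitotic difference from -0.1229 to 0.0011, from -0.011 to 0.1278 and from 0.032 to 0.226. At 4 h against 0 h and at 24 h against 4 h, other replication genes ranged from 0.216 to 0.3065 and from -0.2842 to -0.1995, other mitosis genes from 0.1894 to 0.2671 and from -0.2936 to -0.2195, E2F, RB and DREAM regulators from -0.0045 to 0.1391 and from -0.1103 to 0.036, and G1 genes from 0.012 to 0.2175 and from -0.1159 to -0.0226. The interaction could not be estimated without either 0 h array. Low signal limits CDC6, MKI67 and CCNE2, which lie at or near the floor, and the residual standard deviation was 0.319 (log2) for genes with a mean under 50 against 0.105 over 1000.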
